A study of Mus musculus and Rattus norvegicus with 30 samples.

Results

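The strain by nerve injury interaction is the difference, for each gene, between the injury change in B10.D2 mice and the injury change in BALB/c mice. It was computed from all 20 mouse libraries with a column in the deposited counts, out of 28 such libraries of mouse and rat in the series. Each library held RNA of the L3 and L4 dorsal root ganglia (DRG) of 1 mouse, bought at 4 to 8 weeks of age, and was taken 28 days after surgery. Spared nerve injury (SNI) is a partial lesion of the sciatic nerve that keeps its tibial branch, so the ganglia held both cut and uncut neurons. In sham surgery the nerve was exposed only. BALB/c mice gave 6 sham and 4 SNI libraries and B10.D2 mice gave 5 of each, 10 from males and 10 from females, and they are called below by the number in their title. Both strains are inbred, and B10.D2 is a congenic strain with the same major histocompatibility haplotype as BALB/c.

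Sensory neurons whose axons are cut switch on transcription factors such as Atf3, Jun and Sox11, growth proteins of the axon such as Gap43, and neuropeptides such as galanin and neuropeptide Y. They also release Csf1 and other signals to macrophages, while channel and neurofilament genes of the intact state fall. The DRG further hold satellite glia, Schwann cells, macrophages, vessels and connective tissue, and in bulk RNA fewer cells of a type and less RNA per cell cannot be told apart. Of the neuronal markers, Nefh, the heavy neurofilament of large neurons, had a mean level of 1239 CPM (counts scaled to library totals of 1 M).

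A gene is called here when its edgeR p-value, adjusted after Benjamini and Hochberg across the 24685 features tested, is under 0.05. The interaction is given on the log2 scale as the B10.D2 change minus the BALB/c change, so a negative value means that the gene went up more, or down less, in BALB/c. The interaction was called for 6 features, 0.0243% of those tested, and all 6 had a negative value. They were Gal, which encodes the neuropeptide galanin, Duoxa1, Ly6a, Wfdc3, the non-coding AC160966.1 and Cdc23. At an unadjusted p under 0.05 there were 1073 features, or 4.35%, with 585 negative (2.37%) and 488 positive (1.98%). None of the 3763 assembled LncRNAs tested was called by edgeR, and 189 of them had an unadjusted p under 0.05. DESeq2 called 10 features, and they included the same 6.

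The upstream sequences of 3 genes are shown, of Gal because, of the 6, its level after injury differed most in CPM, and of the others because Duoxa1 and Duox1 are neighbours that moved together in BALB/c. They are the 250 bases before the RefSeq start, on GRCm38.p6, read 5′ to 3′ on the strand of the gene, with each match to GGGCGG (the GC box) in capitals. The Gal stretch is chr19:3414545-3414794 on the minus strand, that of Duoxa1 is chr2:122313731-122313980 on the minus strand, and that of Duox1 is chr2:122315422-122315671 on the plus strand.
Gal: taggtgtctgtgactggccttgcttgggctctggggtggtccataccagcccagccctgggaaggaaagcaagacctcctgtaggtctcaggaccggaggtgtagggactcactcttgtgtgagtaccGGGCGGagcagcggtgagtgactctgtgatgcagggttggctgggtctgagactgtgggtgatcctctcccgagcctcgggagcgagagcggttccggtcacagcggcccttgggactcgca
Duoxa1: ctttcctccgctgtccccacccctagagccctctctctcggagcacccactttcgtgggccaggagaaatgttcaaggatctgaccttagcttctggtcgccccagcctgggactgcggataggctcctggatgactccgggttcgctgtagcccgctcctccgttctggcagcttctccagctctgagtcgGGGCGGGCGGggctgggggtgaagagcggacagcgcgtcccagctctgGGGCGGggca
Duox1: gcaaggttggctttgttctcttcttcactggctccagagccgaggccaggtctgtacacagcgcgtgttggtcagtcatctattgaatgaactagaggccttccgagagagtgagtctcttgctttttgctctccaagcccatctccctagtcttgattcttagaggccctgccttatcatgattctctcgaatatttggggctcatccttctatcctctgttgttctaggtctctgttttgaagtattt

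In the windows shown, the GC box was matched in 1 place for Gal, in 3 places for Duoxa1, of which a pair overlapped, and nowhere for Duox1. It was present on either strand in 32.7% of the 32851 RefSeq windows of 250 bases. The other motifs searched on both strands were the AP-1 letters TGANTCA (6.75% of all windows), the cyclic AMP element TGACGTCA (1.55%) and the STAT letters TTCNNNGAA (7.02%), where N is any base. These letters were not in the 3 windows.

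**Figure D1:**
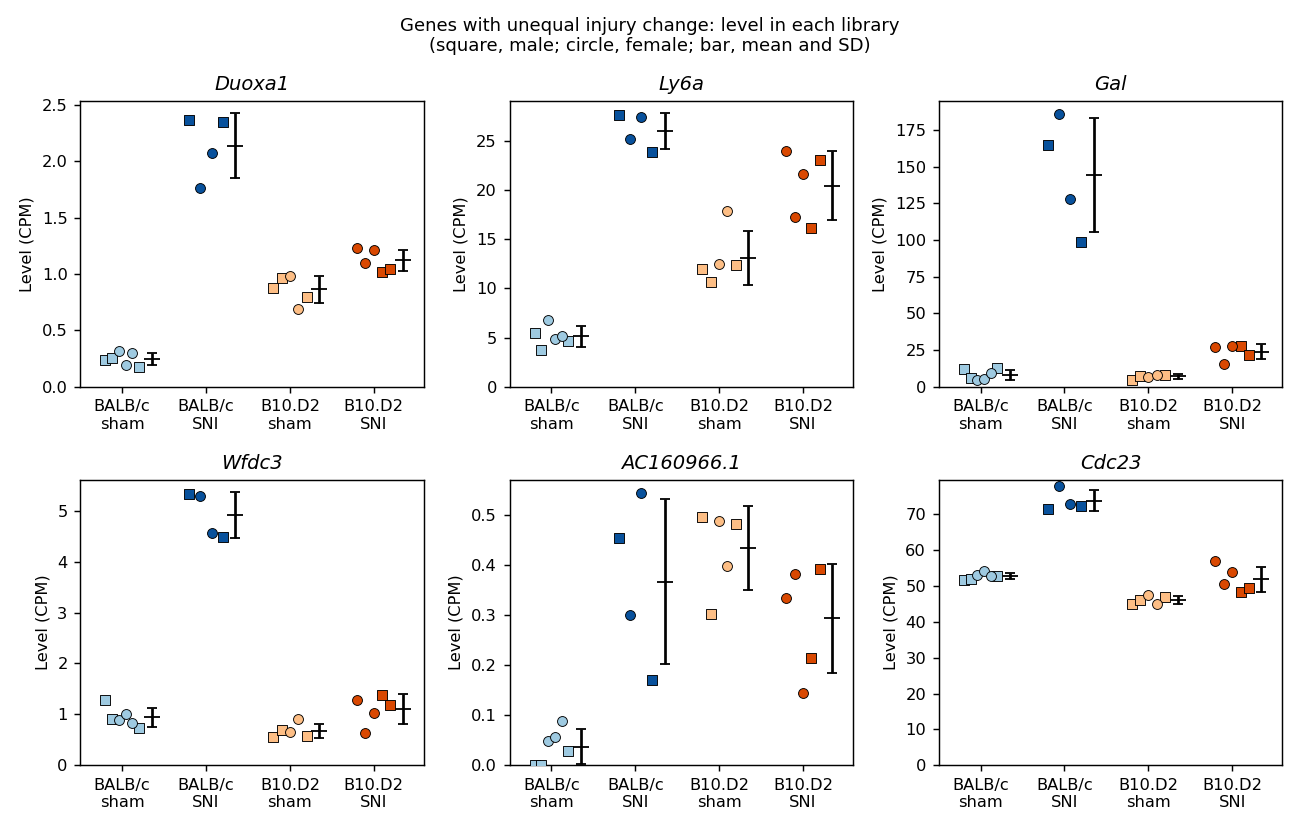
Level in CPM (vertical axis, from 0) of the 6 called features in each of the 20 libraries, by strain and surgery. Squares are males, circles are females, and the bar beside each group is the mean with its SD. The 4 BALB/c SNI libraries lie above every other library for Duoxa1, Gal, Wfdc3 and Cdc23, while for AC160966.1 the 6 BALB/c sham libraries lie below every other library.

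Gal is on chromosome 19 (3409915 to 3414544, minus strand, mm10), and galanin acts on the receptors Galr1, Galr2 and Galr3 and is made at a low level in intact DRG neurons. In the BALB/c sham libraries the Gal level was 4.42 CPM at the lowest, 7.53 at the median and 12.6 at the highest. The B10.D2 sham libraries had 4.56 (58), 7.21 (60), 6.49 (67), 8.17 (77) and 8.18 (88) CPM, within the BALB/c sham range. Sham ranges of the strains overlapped, with no library standing apart. After SNI the BALB/c libraries had 165 (49), 186 (64), 128 (65) and 99.0 (70) CPM. The B10.D2 SNI libraries had 26.7 (69), 15.4 (76), 28 (78), 27.8 (89) and 21.8 (90) CPM. Every SNI library was thus above every sham library of its strain, and the SNI groups of the strains did not overlap. Gal rose 18.1-fold in BALB/c but 3.49-fold in B10.D2, and the interaction was -2.37 ± 0.36 (log2, SE, edgeR adjusted p = 0.0140). The sham levels of the strains did not pass the test (log2 difference -0.22, edgeR adjusted p = 0.628), whereas the SNI levels did (-2.59, edgeR adjusted p = 9.02e-08).

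Of the galanin receptors, Galr1 had an interaction of 0.08 (95% interval -0.38 to 0.55) and Galr2 one of 0.46 (-0.35 to 1.27). Galr2 was lower in B10.D2 than in BALB/c already in sham, with mean levels of 0.138 and 1.12 CPM (log2 difference -3.00, edgeR adjusted p = 9.65e-09). The ligand therefore had unequal injury change, the receptor Galr2 differed with strain in sham animals, and neither receptor was called for injury in either strain.

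Wfdc3 (chromosome 2, 164731180 to 164745931, minus strand) encodes a secreted protein of the WAP family, whose members include protease inhibitors. Its level in BALB/c sham libraries ran from 0.742 over a median of 0.898 to 1.28 CPM. In B10.D2 sham libraries it was 0.555, 0.694, 0.652, 0.905 and 0.579 CPM, in the order of Gal above. The SNI libraries of BALB/c had 5.32, 5.29, 4.56 and 4.48 CPM in that order, and those of B10.D2 had 1.28, 0.638, 1.02, 1.39 and 1.18 CPM. Library 76 was thus the lowest of the B10.D2 SNI group and lay within the sham range, and the other 4 lay above every B10.D2 sham library. Wfdc3 rose 5.20-fold in BALB/c and 1.63-fold in B10.D2 (interaction -1.68 ± 0.27, SE, edgeR adjusted p = 0.0208), and its sham levels did not pass the strain test (edgeR adjusted p = 0.0884).

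Cdc23 is a subunit of the anaphase-promoting complex, a ubiquitin ligase. Its level after SNI was 71.5, 77.9, 72.8 and 72.3 CPM in BALB/c and 56.9, 50.4, 53.8, 48.4 and 49.5 CPM in B10.D2. Sham levels were 51.5 to 54.0 CPM in BALB/c and 44.8 to 47.5 CPM in B10.D2, so the groups were narrow and every BALB/c SNI library was above all others. The rise was 1.40-fold in BALB/c and 1.12-fold in B10.D2 (interaction -0.33 ± 0.06, SE, edgeR adjusted p = 0.0353). Cdc23 overlaps Kif20a, a mitotic kinesin on the opposite strand, whose interaction was -0.59 (edgeR adjusted p = 0.900), and reads of the pair may not be separable because the strand setting of the counting is not given in the sources used here. Among 16 subunits of the complex only Cdc23 was called, and the median interaction of the 16 was -0.03 (-0.048 to -0.0058 leaving out 1 library).

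For Duoxa1, Ly6a and AC160966.1 the B10.D2 sham level was already above the BALB/c sham level. Duoxa1 (chromosome 2, 122302191 to 122313730, minus strand) encodes the factor that brings the dual oxidase Duox1, an enzyme that makes hydrogen peroxide, to the cell surface. Its level in BALB/c sham was 0.171 to 0.314 CPM (median 0.244, 6 to 13 counts per library). In B10.D2 sham it was 0.877, 0.965, 0.978, 0.692 and 0.797 CPM, with no overlap between the sham groups. After SNI the BALB/c libraries had 2.37, 1.76, 2.07 and 2.35 CPM and the B10.D2 libraries had 1.23, 1.10, 1.21, 1.02 and 1.04 CPM. Duoxa1 rose 8.58-fold in BALB/c and stood at 1.30-fold, without a call, in B10.D2 (edgeR adjusted p = 0.198). Every B10.D2 SNI library was nonetheless above every B10.D2 sham library. The interaction was -2.72 ± 0.23 (SE, edgeR adjusted p = 4.11e-06). Duoxa1 overlaps Duoxa2 on the opposite strand.

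Duox1 starts 1942 bases from Duoxa1 on the opposite strand (122315672 to 122347972). Its level was 0.179 to 0.285 CPM in BALB/c sham and 0.752 to 1.45 CPM in BALB/c SNI, with no overlap, and it rose in that strain (log2 change 2.04, edgeR adjusted p = 2.02e-05). In B10.D2 it was 0.380 to 0.706 CPM in sham and 0.615 to 1.23 CPM in SNI, and these groups overlapped (0.57, edgeR adjusted p = 0.207). The Duox1 interaction, -1.47 ± 0.35 (SE), did not pass (edgeR adjusted p = 0.631). Of 13 NADPH oxidase and DUOX genes tested, 3 rose in BALB/c, Duoxa1, Duox1 and Duox2, and none was called in B10.D2. In all, 1190 features (4.82%) rose in BALB/c and 519 (2.10%) in B10.D2. Of the group, 10 had a negative interaction, and the median of -0.13 rested on single libraries, with -0.0016 without BALB/c SNI library 49 and -0.44 without BALB/c sham library 50.

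Ly6a (chromosome 15, 74994877 to 74998031, minus strand) encodes Sca-1, a membrane-anchored protein of blood stem cells and vessels that interferon induces, and the amount on blood cells is known to differ between BALB/c and Black strains. BALB/c sham libraries had 3.71 to 6.81 CPM (median 4.98). B10.D2 sham libraries had 12, 10.7, 12.5, 17.9 and 12.4 CPM, all above the BALB/c sham libraries. After SNI the BALB/c level was 27.7, 25.2, 27.5 and 23.9 CPM and the B10.D2 level was 24, 17.3, 21.7, 16.2 and 23.1 CPM, so that B10.D2 libraries 76 and 89 lay below sham library 77 and the SNI groups overlapped at library 69. Ly6a rose 5.13-fold in BALB/c and 1.53-fold in B10.D2 (interaction -1.74 ± 0.19, SE, edgeR adjusted p = 1.22e-04), and the SNI levels did not differ past the threshold (edgeR adjusted p = 0.0567). Of 14 Ly6 family genes tested only Ly6a was called for the interaction. Ly6c1, a monocyte and vessel member of the family in the same cluster, had -0.37 (95% interval -0.79 to 0.05). Reads of near-identical Ly6 copies could be shared, so values of the family are uncertain.

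AC160966.1 (chromosome 9, 41803165 to 41876268, minus strand) is annotated as a processed transcript without a coding sequence. It had 0 to 3 counts per library in BALB/c sham, 6 to 21 in BALB/c SNI, 10 to 20 in B10.D2 sham and 6 to 15 in B10.D2 SNI. The BALB/c sham libraries were all at or under 3 counts, below every other library, while the remaining groups overlapped. Pooled over libraries, the level in BALB/c SNI was 10.3 times that in BALB/c sham (53 and 8 counts, 95% exact interval 4.86 to 25.1, counting error only), and in B10.D2 it was 0.678 times the sham level (55 and 80 counts, 0.472 to 0.968). Between mice, the B10.D2 change of -0.62 on the log2 scale was not called (edgeR adjusted p = 0.397). The fitted interaction was -3.83 ± 0.62 (SE, edgeR adjusted p = 0.0219), a value that depends on the prior count at these depths.

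Leaving out each library in turn, Gal, Duoxa1 and Ly6a were called in 20 of 20 fits. Wfdc3 was called in 13 and AC160966.1 in 12, and Cdc23 was called in 2, those that left out sham library 77 or SNI library 69 of B10.D2. The total of called features fell to 3 without B10.D2 sham 67, BALB/c sham 71, BALB/c SNI 49 or BALB/c SNI 65. Wfdc3 was lost without B10.D2 sham 67 or 77, B10.D2 SNI 78, BALB/c sham 71 or BALB/c SNI 49, 64 or 65, with adjusted p-values from 0.0504 to 0.0794. AC160966.1 was lost without B10.D2 sham 58, 67 or 88, B10.D2 SNI 89, BALB/c sham 55 or 71, or BALB/c SNI 49 or 65 (adjusted p from 0.0539 to 0.131). In the 18 fits without a call of Cdc23 its adjusted p ran from 0.0588 to 0.284, while its value stayed between -0.36 and -0.30 in all 20 fits.

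**Figure D2:**
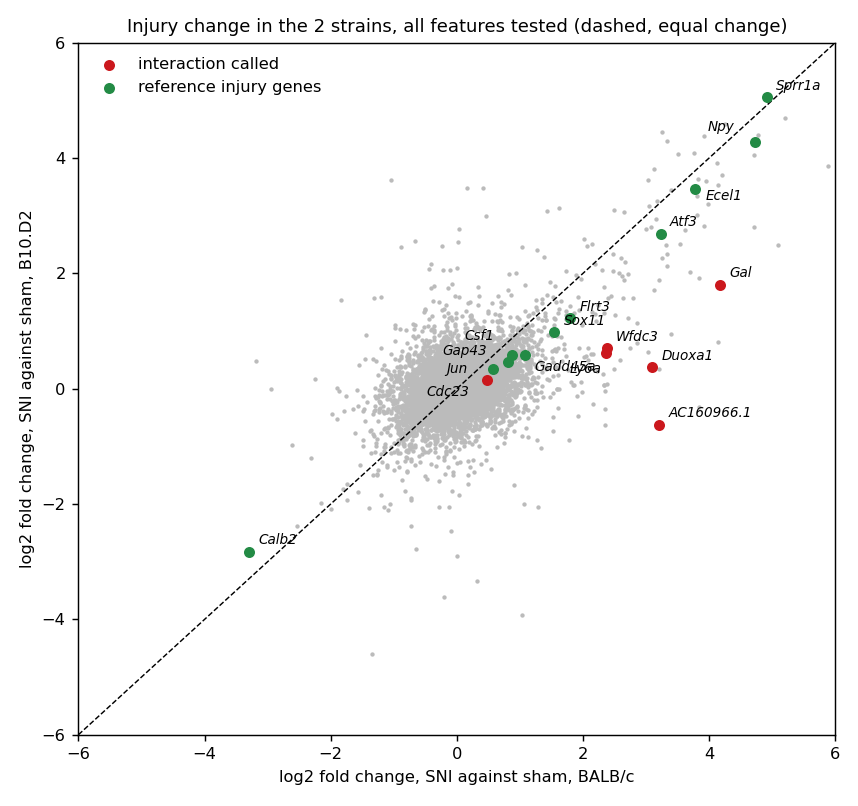
Each point is 1 of the features tested, with its log2 fold change after SNI in BALB/c (horizontal) and in B10.D2 (vertical). The dashed line marks equal change. The 6 called features (red) lie below the line, and of the reference injury genes (green) Sprr1a lies close to it.

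In each strain taken alone, more features were called for injury in BALB/c than in B10.D2. In BALB/c 1190 rose (4.82%) and 1202 fell (4.87%), and in B10.D2 519 rose (2.10%) and 611 fell (2.48%). The difference between these counts was not itself tested. The strains differed in sham animals for 5322 features (21.6%) and in SNI animals for 5147 (20.9%). Of the 867 features called for injury in both strains, each moved in 1 direction in both, and 630 (72.7%) had the larger change in BALB/c. Over all features tested, 41.8% had the same sign and the larger change in BALB/c, 28.5% had the same sign and the larger change in B10.D2, and 29.6% had opposite signs. None of the 867 was in that last class, so the 72.7% and the 41.8% are not on a like base. The median absolute log2 change of the 867 was 0.47 in BALB/c and 0.39 in B10.D2. For 773 of the 867 (89.2%) the 95% interval of the interaction lay within 2-fold, and for 74 (8.54%) its unadjusted p was under 0.05.

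Of the reference genes of nerve injury, Atf3, Sprr1a, Sox11, Gap43, Npy, Ecel1, Flrt3, Gadd45a and Csf1 rose in both strains, Calb2 fell in both, and Vip was not tested because its counts were low. Atf3, a stress-induced transcription factor, was at 111 to 139 CPM in BALB/c SNI and at 106 (69), 35.6 (76), 94.1 (78), 85.8 (89) and 87.8 (90) CPM in B10.D2 SNI. Sham Atf3 levels ran from 7.82 to 24.6 CPM in BALB/c and from 8.54 to 23.8 CPM in B10.D2. The SNI groups thus did not overlap, with library 76 far below the rest, but the Atf3 interaction of -0.55 (95% interval -1.40 to 0.31) did not pass. Neuropeptide Y (Npy) changed by 4.72 in BALB/c and 4.28 in B10.D2 on the log2 scale, with an interaction of -0.45 (-1.66 to 0.77). Sprr1a, a cornified envelope protein that injured neurons make, changed by 4.92 and 5.05, with an interaction of 0.13 (-1.17 to 1.43). Jun changed by 0.57 in BALB/c (edgeR adjusted p = 0.0117), a rise, and by 0.34 in B10.D2 (edgeR adjusted p = 0.207).

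Among the growth genes, Gap43 and Flrt3 had the smallest p-values of the interaction. Gap43, a protein of growing axons, was at 204, 206, 193 and 206 CPM in BALB/c SNI and at 191, 148, 173, 199 and 181 CPM in B10.D2 SNI, and these ranges overlapped. Its log2 change was 0.81 in BALB/c and 0.46 in B10.D2 (interaction -0.35 ± 0.10, SE, edgeR adjusted p = 0.856). Flrt3, an adhesion protein of growing neurites, changed by 1.80 and 1.23 (interaction -0.58 ± 0.15, SE, edgeR adjusted p = 0.718). The transcription factor Sox11 changed by 1.55 and 0.98 (-0.57, edgeR adjusted p = 1). Csf1, the growth factor that injured neurons send to macrophages and microglia, changed by 0.87 and 0.59 (-0.28, edgeR adjusted p = 1). These genes rose in both strains. None of their interactions was called.

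**Figure D3:**
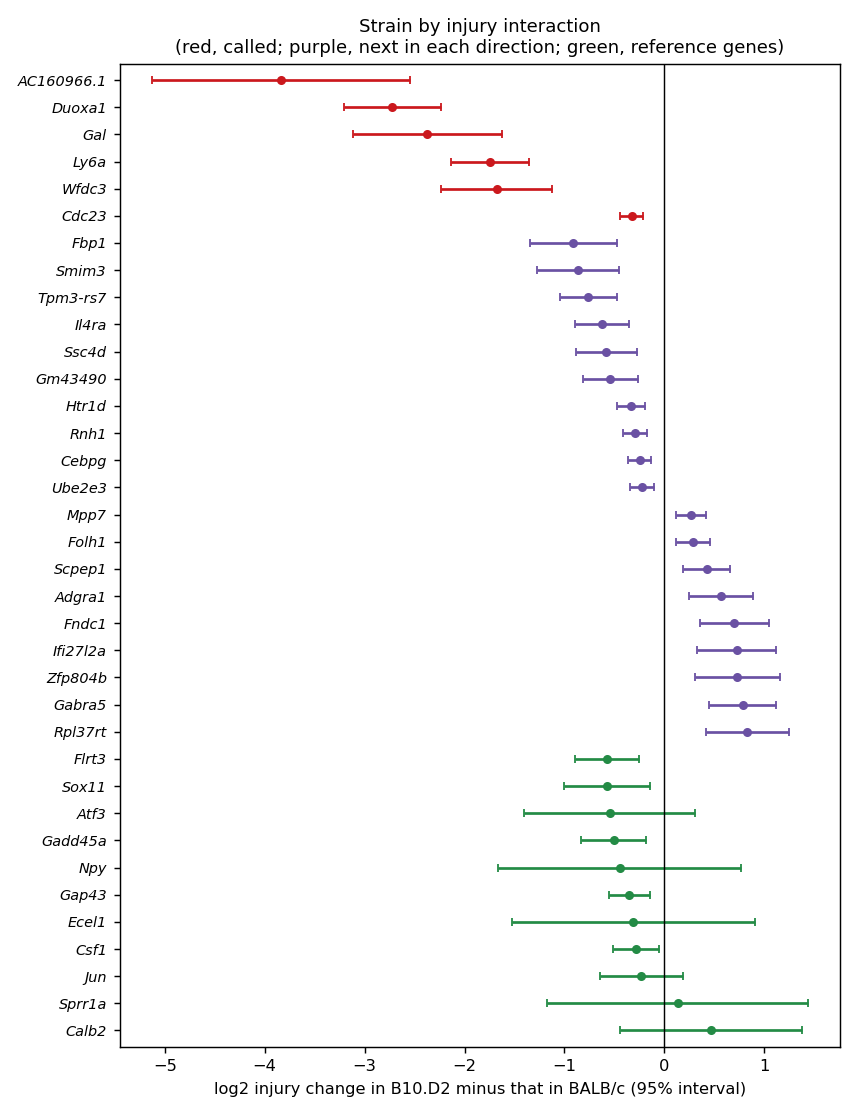
Interaction of the 6 called features (red), of features with the next smallest p in each direction (purple) and of the reference injury genes (green), as the log2 injury change in B10.D2 minus that in BALB/c with its 95% interval. Intervals of Atf3, Npy, Ecel1, Jun, Sprr1a and Calb2 cross 0.

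Of 17 regeneration effector genes tested, 11 rose in BALB/c and 8 in B10.D2, with medians of 0.62 and 0.35 on the log2 scale, while 4.82% and 2.10% of all features rose. The interaction was negative for 14 of the 17 (median -0.22, against 7e-04 over all features), and leaving out 1 library put the median between -0.28 (without B10.D2 sham 77) and -0.12 (without BALB/c SNI 70). It was -0.13 without BALB/c sham 51, -0.14 without B10.D2 sham 60 and -0.15 without BALB/c SNI 64 or B10.D2 SNI 76. Of the 17, 5 (29.4%, against 4.35% of all features) had an unadjusted p under 0.05, among them Flrt3, Gap43, Gadd45a and Stmn4, all negative, and none was called. The mean of log2(CPM + 1) over the 17 genes, taken as an injury index of each library, was 5.10 to 5.38 in BALB/c sham and 5.11 to 5.34 in B10.D2 sham. After SNI it was 6.18 to 6.26 in BALB/c, and 6.11 (69), 5.55 (76), 5.98 (78), 6.04 (89) and 5.98 (90) in B10.D2. The sham ranges overlapped, the SNI ranges did not, and library 76 stood apart from its group. Without library 76 the count of called features was 6 and Gal had -2.25 (edgeR adjusted p = 0.0229). With the index as a term in the fit, Duoxa1 and Ly6a stayed called, while Gal had -1.92 and was not called (edgeR adjusted p = 0.1365). The index was measured after the injury itself, so that term takes out part of the interaction. The part of the extent of injury in the interaction was not tested.

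**Figure D4:**
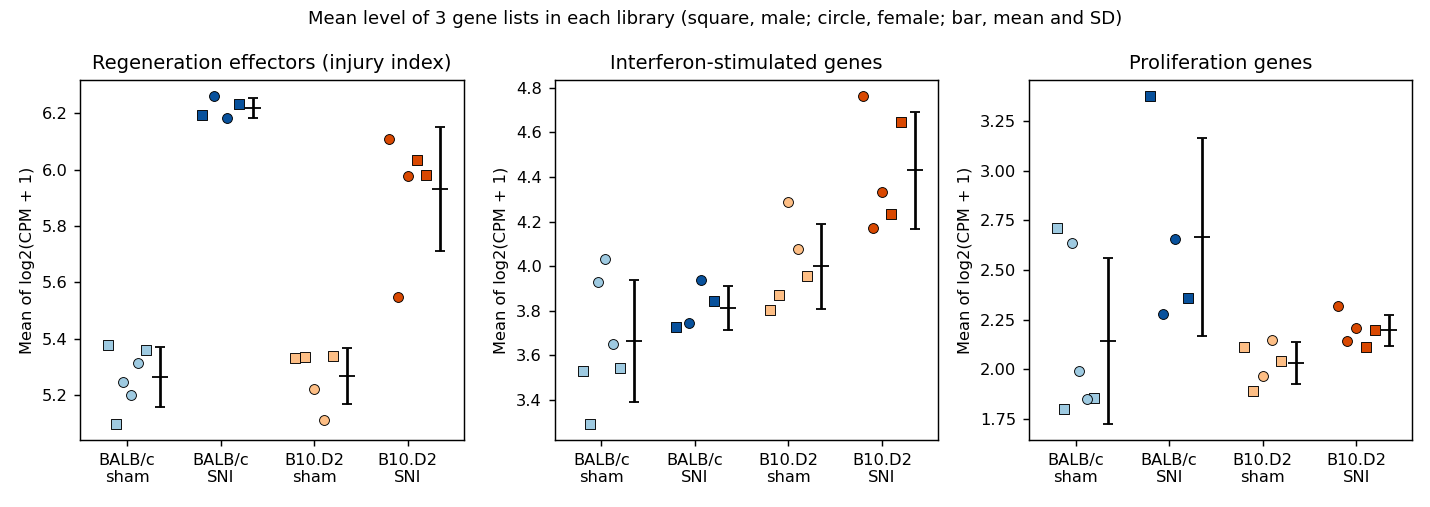
Mean of log2(CPM + 1) over the 17 regeneration effector genes (left), 25 interferon-stimulated genes (middle) and 21 proliferation genes (right) in each library. Squares are males, circles are females, and bars give the mean and SD of each group. In the left panel the 4 BALB/c SNI libraries lie above all B10.D2 SNI libraries, of which library 76 is the lowest at 5.55.

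Among 15 regeneration transcription factors, 7 rose in BALB/c and 4 in B10.D2, while 4.82% and 2.10% of all features rose. Of the 15, 11 had a negative interaction (median -0.15, and -0.23 without BALB/c sham library 57). Klf6, Sox11 and Smad1 had an unadjusted p under 0.05 (20% of the list, against 4.35% of all features). Of 10 injury-induced neuropeptides tested, 6 rose in BALB/c and 5 rose in B10.D2, beside the same shares of all features, and 9 had a negative interaction. Their median interaction was -0.32 (-0.43 to -0.14 leaving out 1 library). Gal was the member called. Adcyap1, the gene of the peptide PACAP, changed by 0.73 in BALB/c and 0.33 in B10.D2 (interaction -0.40, edgeR adjusted p = 1). The peptide genes Nts, of neurotensin, and Ucn, of urocortin, had interactions of -0.23 (95% interval -0.999 to 0.534) and -0.60 (-2.19 to 0.99).

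Among the lists of the intact neuron given here, potassium, calcium, and TRP, Piezo and ASIC channel genes fell more often in BALB/c. So did synaptic and itch genes. The large-fibre, sodium channel, peptidergic and opioid lists had equal counts in the strains. Of 16 calcium channel genes, 4 fell in BALB/c and 1 in B10.D2. Of 21 synaptic and transmitter receptor genes, 9 and 5 fell in that order. Of 18 TRP, Piezo and ASIC channel genes, 2 and 1 fell. Of 7 opioid genes, 2 fell in each strain. The share of all features that fell was 4.87% for BALB/c and 2.48% for B10.D2. Of 16 genes of large-fibre and proprioceptive neurons, 10 fell in BALB/c and 10 in B10.D2, with medians of -0.42 and -0.36 and with no interaction at an unadjusted p under 0.05. Calb2, the calcium-binding protein calretinin, changed by -3.29 and -2.83 (interaction 0.47, 95% interval -0.44 to 1.37). Of 32 potassium channel genes, 10 fell in BALB/c and 7 in B10.D2. Their interactions were positive for 23 (median 0.08, and 0.042 without BALB/c SNI library 65), and 2 had an unadjusted p under 0.05, Kcnk4 and Kcnb2, which is 6.25% of the list against 4.35% of all features. Of 14 voltage-gated sodium channel genes, 5 fell in each strain. Of these 14, 2 had a negative interaction (median 0.09, 0.055 to 0.126 leaving out 1 library). Scn4a had an unadjusted p under 0.05 (7.14% of the list, against 4.35% of all features). Of 9 peptidergic nociceptor genes, 2 fell in each strain, and none, Calcb (-0.13, 95% interval -0.39 to 0.14) included, had an interaction at an unadjusted p under 0.05. Of 17 nonpeptidergic and itch genes, 1 fell in BALB/c and none was called in B10.D2. The interaction was negative for 4 of 16 large-fibre, 4 of 16 calcium channel and 5 of 21 synaptic genes. Each list in this paragraph had a median interaction above 0, from 0.01 (opioid genes) to 0.10 (synaptic genes). Leaving out 1 library could turn the medians of the opioid, peptidergic, itch, and TRP, Piezo and ASIC lists below 0.

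The interferon-stimulated genes had a positive median. Of 25 interferon-stimulated genes, 1 rose in BALB/c and 8 rose in B10.D2, against 4.82% and 2.10% of all features, while 22 had a positive interaction (median 0.25, and 0.14 without B10.D2 SNI library 90). Oasl2, Ifit1 and Iigp1, which act in antiviral defence, had an unadjusted p under 0.05 (12% of the list), and none was called. The mean of log2(CPM + 1) over these genes was 3.66 ± 0.275 (SD, n = 6) in BALB/c sham, 3.81 ± 0.0988 (SD, n = 4) in BALB/c SNI, 4 ± 0.191 (SD, n = 5) in B10.D2 sham and 4.43 ± 0.261 (SD, n = 5) in B10.D2 SNI. Ly6a, which interferon induces in other cells, had an interaction of -1.74, with a B10.D2 sham level 2.59-fold that of BALB/c sham. The part of interferon in the Ly6a values was not tested. No gene of 7 MHC class II and 14 MHC class I presentation genes tested had an unadjusted p under 0.05, and none was called for injury in either strain. The interaction was negative for 1 of the 7 (median 0.10, 0.0074 to 0.30 leaving out 1 library). For class I it was negative for 3 of the 14 (median 0.10, 0.001 to 0.15).

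Of 18 macrophage markers, 7 rose in BALB/c and 2 in B10.D2, while 4.82% and 2.10% of all features rose. The interaction was negative for 16 of the 18 (median -0.10), none with an unadjusted p under 0.05. The sign of this median rested on single libraries, since it was 0.024 without BALB/c SNI library 65 and 0.0079 without BALB/c sham library 51, and -0.23 without BALB/c sham library 50. It was 0.10 in females alone and -0.23 in males alone. All 21 proliferation genes tested had a negative interaction (median -0.48), again with none at an unadjusted p under 0.05. This median rested on BALB/c SNI library 49, since it was -0.038 without that library, and it was -0.69 without BALB/c sham 50, -0.31 without BALB/c sham 51 and -0.30 without BALB/c sham 71. Their mean log2 level was 1.80 to 2.71 in BALB/c sham, 2.28 to 3.38 in BALB/c SNI, 1.89 to 2.15 in B10.D2 sham and 2.11 to 2.32 in B10.D2 SNI, and the median interaction was -0.03 in females alone and -0.69 in males alone. All 14 neutrophil and blood markers also had a negative interaction (median -0.97), with 1, Hbb-bt, at an unadjusted p under 0.05 (7.14% of the list). The median was -0.42 without BALB/c SNI library 49, -0.32 in females alone and -1.58 in males alone. The mean log2 level of the blood list was 3.28 to 5.12 in BALB/c sham, 3.96 to 5.48 in BALB/c SNI, 2.78 to 4.07 in B10.D2 sham and 2.86 to 3.42 in B10.D2 SNI. The part of blood cells in the proliferation, macrophage and Ly6a values was not tested. The 13 T and B lymphocyte genes tested had low levels, with group means of log2(CPM + 1) from 0.703 in BALB/c sham to 0.891 in BALB/c SNI. Of the 13, 9 had a negative interaction (median -0.40). The B cell genes Cd79b, Cd79a and Ms4a1 had an unadjusted p under 0.05 (23.1% of the list, against 4.35% of all features), and none was called. The median turned to 0.24 without BALB/c SNI library 65 and to 0.081 in males alone, and was -0.89 without B10.D2 SNI library 90.

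**Figure D5:**
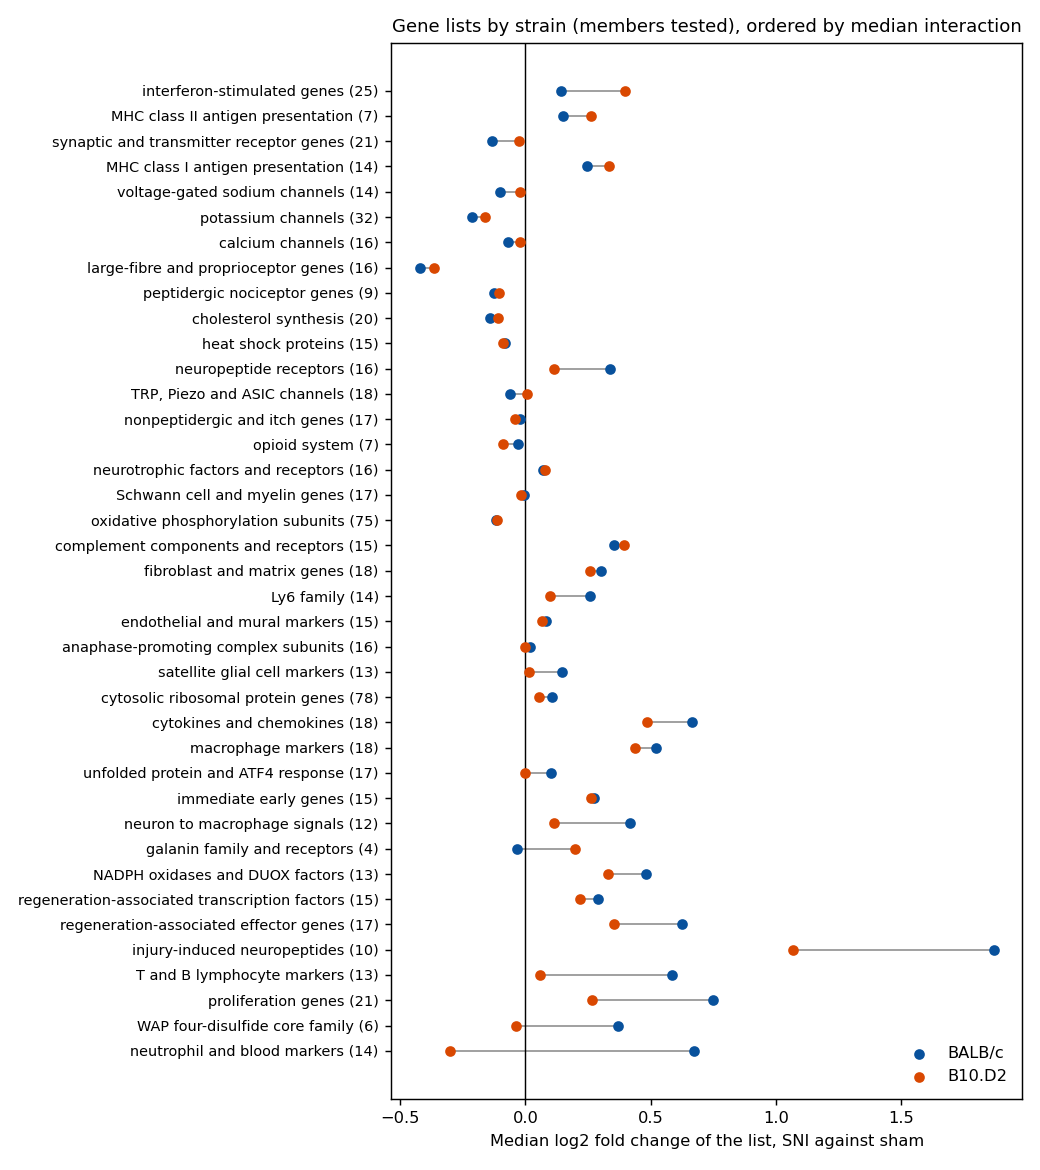
Median log2 fold change after SNI of each gene list in BALB/c (blue) and B10.D2 (orange), with the number of members tested in brackets, ordered from the most positive median interaction (top) to the most negative (bottom). Interferon-stimulated genes are at the top, with medians of 0.14 and 0.40, and neutrophil and blood markers at the bottom, with 0.67 and -0.30.

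Of 78 ribosomal protein genes of the cytosol, 10 rose in BALB/c and none was called in B10.D2, while 4.82% and 2.10% of all features rose. None of the 78 was called for the interaction. The interaction was below 0 for 64 of them (median -0.06, from -0.084 to -0.0295 leaving out 1 library). An unadjusted p under 0.05 was found for 1 (1.28%, against 4.35% of all features). Rpl26, the member with the smallest p (-0.22, edgeR adjusted p = 1), differed 3.03 on the log2 scale between the strains in sham. The 17 genes of the unfolded protein and ATF4 response, such as Ddit3 and Trib3, had 14 negative values (median -0.11, and -0.073 without B10.D2 sham library 60), and the 75 subunits of oxidative phosphorylation had 34 (median 0.00). In satellite glia, Schwann cells, fibroblasts and vessels, the medians lay between -0.05 and 0.01 with at most 1 gene of a list at an unadjusted p under 0.05. Leaving out 1 library moved these 4 medians between -0.19 and 0.14.

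Features with a negative interaction and the next smallest p-values after the called ones included Rnh1, Htr1d and Il4ra. None of this group was called by edgeR. Rnh1, the ribonuclease inhibitor, was at 111, 109, 104 and 110 CPM in BALB/c SNI and at 91.3, 82.9, 88.6, 90.3 and 93.4 CPM in B10.D2 SNI, with sham libraries of both strains at 69.6 to 81.0 CPM. It rose in both strains by 0.60 and 0.31 (interaction -0.29 ± 0.06, SE, edgeR adjusted p = 0.164). Htr1d, a serotonin receptor that triptans act on, was at 26.3 to 29.6 CPM in B10.D2 SNI and at 33.7 to 40.9 CPM in all other libraries. It fell in B10.D2 (-0.34, edgeR adjusted p = 1.95e-04) and was at -0.01 in BALB/c (edgeR adjusted p = 0.95), and its interaction was -0.33 (edgeR adjusted p = 0.230). Il4ra, the receptor chain for interleukins 4 and 13, was at 18.5 to 26.6 CPM in BALB/c sham, 30.5 to 40.6 CPM in BALB/c SNI and 52.6 to 67.8 CPM in both B10.D2 groups (interaction -0.62, edgeR adjusted p = 0.230). Tpm3-rs7, a tropomyosin-related copy, was at 25.4 to 31.7 CPM in BALB/c and 0.306 to 0.665 CPM in B10.D2 (interaction -0.76, edgeR adjusted p = 0.631), and reads of it could be shared with Tpm3. The other 6 of this group were Cebpg, Smim3, Fbp1, Gm43490, Ssc4d and Ube2e3, with interactions from -0.91 to -0.23.

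With a positive interaction, the smallest p-value was that of Gabra5, a subunit of the GABA-A receptor. It was at 3.15, 2.36, 2.72 and 2.61 CPM in BALB/c SNI and at 2.97 to 5.06 CPM in the other 3 groups, with an overlap at BALB/c SNI library 49. Gabra5 changed by -0.67 in BALB/c (edgeR adjusted p = 7.10e-04), a fall, and by 0.11 in B10.D2 (interaction 0.78 ± 0.16, SE, edgeR adjusted p = 0.230). Scpep1, a serine carboxypeptidase, rose in B10.D2 (0.61, from 31.8 to 33.9 CPM in sham to 41.0 to 58.5 CPM in SNI), and was at 0.19 in BALB/c (interaction 0.42, edgeR adjusted p = 0.718). A further 7 were Fndc1, Rpl37rt, Ifi27l2a, Mpp7, Adgra1, Zfp804b and Folh1, with interactions from 0.27 to 0.83 and adjusted p-values from 0.631 to 0.825.

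Genes that rose or fell in rat DRG after spinal nerve transection, in a separate fit of 8 rat libraries, gave lists from other animals. The rats were male Wistar animals, and each rat library was a pool of animals made from polyadenylated RNA. The lesion, the ganglion and the time after surgery also differed from those of the mice. Of 1366 mouse genes with a symbol that rose in rat, 281 rose in BALB/c and 127 in B10.D2, against 4.82% and 2.10% of all features. Of the 1366, 885 had a negative interaction, the median was -0.04 (-0.064 to -0.016 leaving out 1 library), and 66 negative and 6 positive values (5.27%, against 4.35% of all features) had an unadjusted p under 0.05. Gal and Duoxa1 were the members of this list called for the interaction, and the other 4 called features had no rat entry of the same symbol among those tested. Of 1268 whose symbol fell in rat, 325 fell in BALB/c and 191 in B10.D2 (of all features 4.87% and 2.48%), 452 had a negative interaction, the median was 0.03 (0.020 without B10.D2 SNI 89), and 3.15% had an unadjusted p under 0.05. In female libraries alone the median of the first list was 0.01.

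Within sexes, the interaction kept its sign for the 6 called features, and the values were -1.82 in males and -3.00 in females for Gal, -3.17 and -2.31 for Duoxa1, -1.73 and -1.76 for Ly6a and -1.25 and -2.10 for Wfdc3. In males alone 1 feature was called, Duoxa1, and in females alone none was called by edgeR, with 926 at an unadjusted p under 0.05. With sex by strain and sex by surgery terms added, 7 features were called, the 6 and Rfx4, a transcription factor with a positive value.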

How the data were processed

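The authors prepared strand-specific mouse libraries of ribodepleted RNA, and rat libraries of polyadenylated RNA. As their methods state, they aligned the mouse reads with STAR to mm10. They counted read pairs per feature with HTSeq in intersection-nonempty mode over annotated genes and LncRNAs that they assembled. The deposited tables hold raw counts, 30.0 to 41.9 M per mouse library. The strand setting of the counting is not given in the sources used here. B10.D2 sham sample 59 and BALB/c SNI sample 66 of the labels were not analysed here.

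Counts were fitted with edgeR 4.0.16 (TMM, filterByExpr, glmQLFit and glmQLFTest, two-sided) in R 4.3.3, with a term for each strain and surgery and a term for sex. Of 54315 features 24685 were tested. SE is the absolute log2 value over the square root of F, and intervals use t quantiles. CPM uses TMM-scaled library totals, and a floor of 3 counts is 0.0716 to 0.1 CPM. Features named were those called, the next 10 in each direction with a mean of at least 1 CPM, the smallest p of each list and reference injury genes. Some features that this rule names are not reported here. Neighbouring genes (Duox1, Duox2, Ly6c1, Kif20a, Galr2) were added after values were seen. Members and lists were chosen with earlier results of these data known. Gene positions came from GENCODE M21. The deposited result tables of the authors were used for rat gene symbols only, and their fold changes and p-values were not used. P-values of the mouse fits measure the spread between mice, and those behind the rat lists measure the spread between pools of rats.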

Additional observations from a re-analysis of the deposited data

Results flagged for a closer look

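For Duoxa1 (-2.72), Ly6a (-1.74), Gal (-2.37), Wfdc3 (-1.68), AC160966.1 (-3.83) and Cdc23 (-0.33) the log2 injury change in B10.D2 minus that in BALB/c passed the edgeR interaction test.

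Single libraries also stood far from their group. Gaps were tested in 152 groups of values, of which 14 had a library farther from its neighbour than Dixon's limit, and chance gives about 1 in 20. Library 76 of B10.D2 SNI was low for the injury index (5.55, others from 5.98), Atf3 (35.6 CPM), Ecel1 (3.78 CPM) and Smim3 (6.97 CPM). In the same group Mpp7 was high in library 69 (20.2 CPM) and Zfp804b low in library 90 (2.10 CPM). B10.D2 sham library 88 was high for Gap43 (154 CPM) and Rnh1 (81.0 CPM), library 77 was high for Ly6a (17.9 CPM), and library 60 was low for Ifi27l2a (10.3 CPM). In BALB/c SNI, library 49 was high for Fbp1 (2.01 CPM) and Ifi27l2a (12.4 CPM) and library 65 was low for Gap43 (193 CPM), and in BALB/c sham library 57 was low for Fbp1 (1.07 CPM). Without library 76 the same number of features, 6, was called, of which 5 were shared, with Folh1 (interaction 0.35, edgeR adjusted p = 0.0437) in place of Cdc23 (edgeR adjusted p = 0.0787).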

How the results depend on the processing

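No paired analysis was possible because each mouse sample number belongs to 1 library and no number is shared between groups. The interaction count of 6 was 10 with DESeq2 1.42.0 (adding Il4ra, Rnh1, Gabra5 and Htr1d). It was 3 with at least 10 counts in every library (Gal, Ly6a and Wfdc3). That filter removes Duoxa1 and AC160966.1, and Cdc23 was tested but not called (edgeR adjusted p = 0.0606). The count was 2 with the injury index as a term (Duoxa1 and Ly6a). With that term the edgeR adjusted p was 0.1365 for Gal, 0.278 for Wfdc3, 0.121 for AC160966.1 and 0.63 for Cdc23. The count was 1 in males alone, 0 in females alone by edgeR (926 at an unadjusted p under 0.05) and 3 to 6 leaving out 1 library. RLE scaling gave 6, no filter 6 (5 shared), no sex term 5, added sex terms 7 and annotated genes alone 6. Cdc23 was the call lost with no filter (edgeR adjusted p = 0.221) and with no sex term (edgeR adjusted p = 0.102). The BALB/c injury count of 2392 was 415 in males, 902 in females and 1643 to 2648 leaving out 1 library. The B10.D2 count of 1130 was 95 in males, 187 in females and 665 to 1214 leaving out 1 library, with 665 without SNI library 90 and 728 without SNI library 69. Halving the libraries lowers what can be called. None of the reversed values was called. With the injury index as a term the interactions of Atf3 (0.24), Jun (0.16), Npy (0.47) and Ecel1 (0.86) reversed, as did Trpv4 (0.014), Timp1 (0.090) and Hspb8 (0.07) in females alone and Duox2 (0.18) in males alone. Sprr1a ran from -0.31 to 0.47 leaving out 1 library. The index was itself measured after injury and its SNI ranges did not overlap between the strains, so that term takes out part of the interaction by construction. The cause of the other changes was not tested. Intervals show the limit: for features of at least 1 CPM, 94.8% of interactions had a 95% interval within 2-fold.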
